A study of Drosophila melanogaster with 6 samples.

Results

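Antioxidant, thioredoxin and metal-binding genes of the fly head were compared between flies raised without and with a dietary source of vitamin A. The set was a named list of 32 genes, taken from a whole of 17509 genes listed in the deposited tables. It comprised 4 genes for superoxide dismutases and catalase, 8 for peroxiredoxins and a glutathione-type peroxidase, 5 for thioredoxins, their reductases and a methionine sulfoxide reductase, and 4 for glutathione synthesis. A further 2 supply NADPH, 2 encode the Keap1 and Cnc regulators, 5 encode metallothioneins and 2 encode ferritin chains. Genes were picked by name, with earlier results of these data known. Total RNA came from whole heads of wild-type Canton S females aged 4 days. All flies ate minimal food at 25 °C and 50% relative humidity, and beta-carotene was left out for the 3 vitamin A deprived libraries and added for the 3 vitamin A replete libraries. A whole head holds eyes, brain, fat body, muscle and cuticle, so in these bulk samples fewer cells of a type and less RNA per cell cannot be told apart.

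Superoxide dismutases turn superoxide into hydrogen peroxide, which catalase and the peroxidases then break down. Peroxiredoxins are recharged by thioredoxin, thioredoxin is recharged by thioredoxin reductase, and the reductase draws on NADPH from the pentose phosphate pathway. Flies have no glutathione reductase, and their thioredoxin system also keeps glutathione reduced. CncC, a product of the cnc gene and the fly relative of Nrf2, switches on many of these genes when Keap1 releases it. Metallothioneins bind copper, zinc and cadmium through their cysteines and are induced by the metal-sensing factor MTF-1, while ferritin stores iron. Carotenoids are themselves antioxidants and are the source of the fly's visual chromophore. The diet comparison addresses how head transcripts differ when beta-carotene is missing, here for the genes of this defence.

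The libraries held 15668307 to 24165187 counts, and each deprived library was deeper than each replete one. A count of 3 was worth 0.125 to 0.186 CPM (counts per 1000000, on library sizes scaled by TMM, the trimmed mean of M values), a floor that covers counting error only. Nothing in the labels says that the libraries came from separate sets of flies, so a p-value here speaks of the spread among these 6 libraries, part or all of which may be technical. The codes that the labels give the libraries form separate number ranges for the diets, and what they record is not stated, so a preparation or sequencing batch cannot be told apart from diet. Tests used edgeR's quasi-likelihood F test on all 10896 genes with enough reads, with Benjamini-Hochberg (BH) adjustment over all of them, and fold changes are deprived over replete. Photoreceptor markers were abundant in every library, with 7 genes summing to between 19386 and 21994 CPM, and the 8 neuronal and glial markers summed to between 4748 and 5229 CPM. At an unadjusted p under 0.05, reached by 5.13% of all tested genes, 1 of the 7 photoreceptor markers was higher (rdgA) and 3 were lower (Arr1, norpA and inaD). None of these passed over all genes, and none of the neuronal and glial markers had such an unadjusted p.

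No antioxidant or metal-binding gene passed the test for a difference between diets. Of the 32 genes, 26 had enough reads for the test, and 0 of these 26 passed at a BH-adjusted p under 0.05, where 0.330% of all tested genes passed. DESeq2 and limma-voom also called 0 of them. At an unadjusted p under 0.05 there were again 0 of 26 in edgeR, and 0 in DESeq2 and limma-voom, against 5.13% of all tested genes. The estimates were small and balanced: 13 genes had a positive and 13 a negative log2 fold change, ranging from -0.49 for Trxr2 to 0.39 for Prx2540-1. The median size of the log2 fold change was 0.089 against 0.13 over all tested genes. These medians were not matched for abundance, so they do not show that the set was steadier than other genes. The deprived and replete values did not overlap for Prx2540-1 and Gclc, both higher without beta-carotene, which is 2 of 26 where 5.86% of all tested genes were apart in that direction. There were 0 of 26 apart in the other direction, against 5.02%.

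A test that is not passed does not show equal levels, so the 95% confidence interval of each fold change was computed from the quasi-likelihood fit. For 18 of the 26 genes the whole interval lay within 1.5-fold in either direction, and for 23 it lay within 2-fold. The 8 genes whose interval reached beyond 1.5-fold were Prx2540-1, Prx2540-2, Prx6005, Jafrac2, Trxr2, MtnA, MtnD and MtnE, and those reaching beyond 2-fold were Trxr2, MtnD and MtnE. Among the 19 genes with a mean above 25 CPM, 17 had an interval within 1.5-fold. MtnA and Prx2540-2 were the exceptions, the first from 0.622-fold to 1.68-fold and the second from 0.913-fold to 1.503-fold.

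**Figure D1:**
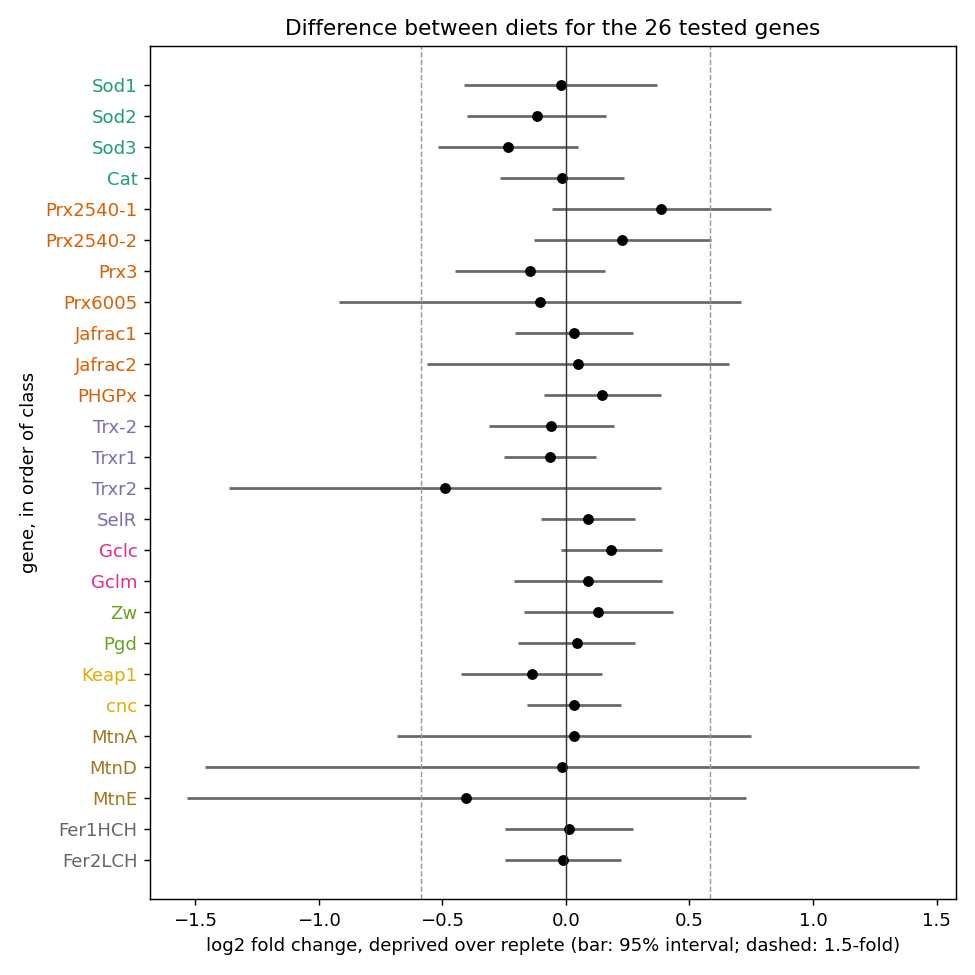
Log2 fold change, deprived over replete, of the 26 tested genes (x axis) by gene (y axis, label colours mark the classes). Points are estimates, bars are 95% intervals and dashed lines mark 1.5-fold; every bar crosses 0, and the bars of Trxr2, MtnD and MtnE are the widest.

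Levels differed widely among these genes. Per kilobase of annotated exon, ferritin light chain gene Fer2LCH was highest at a mean of 356 CPM per kilobase over the 6 libraries, above 98.7% of tested genes. Sod1 followed at 237, Fer1HCH at 182, Jafrac1 at 165, MtnA at 153 and Cat at 148 CPM per kilobase. Further down were Sod2 at 52.9, Trx-2 at 51.0, cnc at 48.9 and Gclm at 45.3 CPM per kilobase, of which Gclm was still above 89.1% of tested genes. The lowest of the tested genes were Prx6005 at 2.65, MtnE at 1.64 and Trxr2 at 1.13 CPM per kilobase, with 11.6% of tested genes below Trxr2. The order of neighbours on this scale was often within their spread, since Fer1HCH ran from 155 to 219 and Jafrac1 from 144 to 188 CPM per kilobase.

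**Figure D2:**
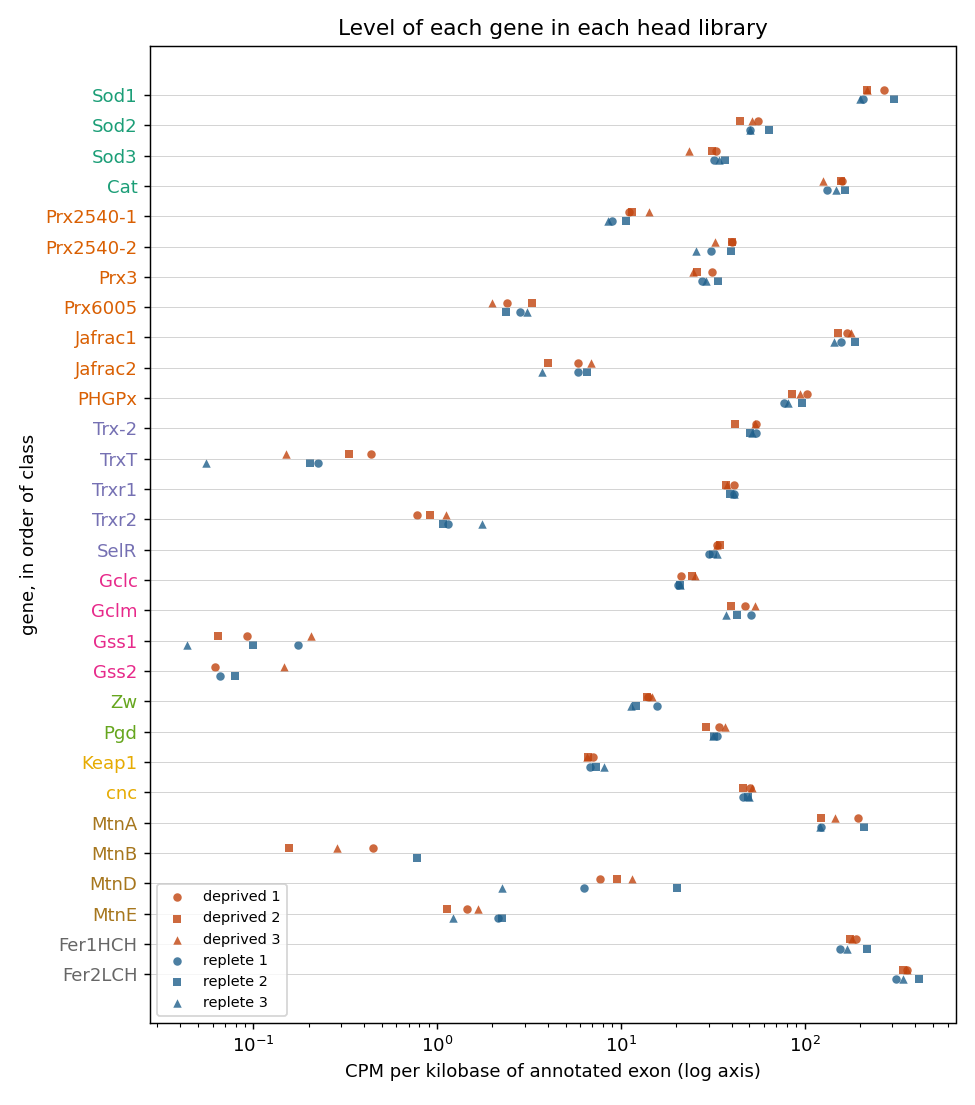
Level of 30 of the 32 genes in each library, in CPM per kilobase of annotated exon on a log axis, with deprived libraries in orange and replete libraries in blue; a library without a count has no point, and Prx5 and MtnC, which have no count in any library, are left out. The 2 diets overlap for each gene except Prx2540-1 and Gclc, and Fer2LCH is at the top while Gss1 and Gss2 are at the bottom.

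The 6 genes without enough reads for the test were Prx5, TrxT, Gss1, Gss2, MtnB and MtnC. TrxT, a thioredoxin made in the testis, had 11, 8 and 4 counts in deprived and 4, 4 and 1 counts in replete female heads. Gss1 and Gss2, neighbouring and near-identical genes for glutathione synthetase on chromosome X, had together 10, 4 and 24 counts in deprived and 11, 9 and 2 counts in replete libraries. They lie 1098 bases apart with the same exonic length of 2838 bases, and how reads that map to both copies were counted is not given in the sources used here. Prx5, which encodes another peroxiredoxin, was listed at 0 in every library. So was its neighbour CG7215, whose exons cover 100% of those of Prx5 on the same strand in the annotation used here (BDGP6.54, chromosome 3R, 18165442 to 18167273), and whether counting dropped shared reads was not tested. These low values are therefore uncertain as levels of glutathione synthetase and Prx5 transcripts.

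Superoxide dismutase and catalase transcripts were abundant and gave no call. Cytosolic copper-zinc dismutase gene Sod1 was at 199, 160 and 161 CPM in the deprived libraries and at 153, 226 and 148 CPM in the replete libraries. Its highest and lowest values both fell among the replete libraries, and the fold change was 0.985 (95% interval 0.752 to 1.29). Mitochondrial manganese dismutase gene Sod2 was at 56.7, 45.4 and 52.5 against 51.0, 65.3 and 51.4 CPM. The gene for the extracellular enzyme, Sod3, was at 66.7, 63.3 and 47.6 CPM in deprived and 64.4, 74.8 and 69.4 CPM in replete heads. Deprived library 3 was the lowest for Sod3 and the groups overlapped, with a log2 fold change of -0.23 ± 0.13 (SE; edgeR quasi-likelihood, BH-adjusted p = 0.997). Cat, which encodes peroxisomal catalase, was at 319, 312 and 250 against 265, 330 and 296 CPM, a fold change of 0.989 (0.831 to 1.18). All 4 estimates of this class were below 0, and every interval included no change. Summed over the class, deprived libraries had 641, 581 and 510 CPM and replete libraries 534, 696 and 565 CPM.

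Among the peroxidases, the Prx2540 copies had the largest positive estimates. These genes for cytosolic 1-Cys peroxiredoxins lie on chromosome 2R, Prx2540-2 at 10418718 to 10419761 and Prx2540-1 at 10424436 to 10425471 (BDGP6.54, plus strand), 4674 bases apart. Prx2540-1 was at 9.36, 9.69 and 12.1 CPM in deprived and 7.57, 9.03 and 7.20 CPM in replete heads. Every deprived value was above every replete value, by as little as 9.36 against 9.03 CPM, and the log2 fold change of 0.39 ± 0.20 did not pass (SE; edgeR quasi-likelihood, BH-adjusted p = 0.997). Prx2540-2 was at 34.3, 34.3 and 28.0 against 26.4, 33.9 and 22.03 CPM, with overlapping groups (log2 fold change 0.23 ± 0.16, SE). Because the copies are near-identical, reads may be split between them, and their values are uncertain one by one. Added together they gave 43.7, 44.0 and 40.1 CPM in deprived and 34.0, 43.0 and 29.2 CPM in replete heads, so that replete library 2 lay among the deprived values. Another copy on the same chromosome arm, CG12896, was at 2.54, 1.01 and 2.26 against 1.12, 3.16 and 1.6 CPM.

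For the remaining peroxidases the groups overlapped. PHGPx, the fly's glutathione peroxidase relative that works with thioredoxin, was at 140, 117 and 129 CPM in deprived and 105, 132 and 111 CPM in replete heads, a fold change of 1.11 (0.940 to 1.31). Jafrac1, the main cytosolic peroxiredoxin gene, was at 249, 222 and 263 against 231, 275 and 211 CPM, a fold change of 1.02 (0.867 to 1.21). Mitochondrial Prx3 was at 31.7, 26.6 and 25.0 against 28.1, 34.4 and 29.5 CPM. The 2 least abundant of the tested peroxidase genes were Jafrac2, whose protein enters the secretory pathway, at 5.07 to 8.73 CPM in deprived and 4.74 to 8.36 CPM in replete heads, and the 1-Cys gene Prx6005 at 1.71 to 2.83 and 2.03 to 2.65 CPM. Across the 7 tested peroxidase genes 5 estimates were positive and 2 negative.

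Thioredoxin pathway transcripts gave no call, and Trxr1 and SelR varied least between libraries of all 26 genes. Trx-2, the thioredoxin gene used throughout the body, was at 73.7, 56.4 and 73.2 CPM in deprived and 73.5, 68.5 and 69.8 CPM in replete heads. Trxr1, which encodes the main thioredoxin reductase, was at 129, 118 and 119 against 129, 123 and 129 CPM. Its fold change of 0.957 had an interval from 0.842 to 1.09, and its biological coefficient of variation, the spread between libraries beyond counting noise, was 9.30%. Exons on the other strand overlap 13.8% of its exonic length. SelR, which repairs oxidized methionine with thioredoxin as its partner, was at 104, 108 and 104 against 94.1, 99.3 and 104 CPM, with a coefficient of variation of 9.46%. The other reductase gene, Trxr2, was low at 1.40, 1.64 and 2.01 against 2.05, 1.92 and 3.14 CPM, which rests on 32 to 51 counts a library. Its estimate of -0.49 ± 0.40 on the log2 scale was the most negative of the set and did not pass (SE; edgeR quasi-likelihood, BH-adjusted p = 0.999). Summed over the class, the deprived libraries had 309, 284 and 298 CPM and the replete libraries 299, 293 and 306 CPM.

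Glutathione synthesis was represented by the ligase subunits. Gclc, the catalytic subunit of glutamate-cysteine ligase and the rate-limiting enzyme of glutathione synthesis, lies on chromosome X at 8102181 to 8116147 (BDGP6.54). It was at 94.0, 108 and 111 CPM in deprived and 90.5, 92.1 and 92.9 CPM in replete heads. The replete values were close together and all below the deprived ones, by as little as 92.9 against 94.0 CPM. Its fold change was 1.14 (0.985 to 1.31) and did not pass (edgeR quasi-likelihood, BH-adjusted p = 0.988, the smallest of the set). Gclm, the modifier subunit, was at 71.1, 59.5 and 80.3 against 77.1, 64.8 and 56.5 CPM, with overlapping groups. The level of Gclc per kilobase was 0.452, 0.619 and 0.473 times that of Gclm in deprived and 0.401, 0.486 and 0.562 times in replete libraries, so this ratio varied by more between libraries than between diets.

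Neither gene for an NADPH-making enzyme of the pentose phosphate pathway was called. Zw, which encodes glucose-6-phosphate dehydrogenase, was at 35.4, 34.7 and 37.3 CPM in deprived and 39.3, 30.4 and 28.6 CPM in replete heads, a fold change of 1.10 (0.889 to 1.35). Exons on the other strand overlap 16.4% of its exonic length. Pgd, which encodes 6-phosphogluconate dehydrogenase, was at 64.8, 55.3 and 70.1 against 63.4, 60.8 and 60.4 CPM, a fold change of 1.03 (0.875 to 1.21).

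Regulator transcripts gave no call either. The gene cnc was at 462, 423 and 477 CPM in deprived and 424, 450 and 457 CPM in replete heads, a fold change of 1.02 (0.897 to 1.17). Gene counts do not separate its isoforms, of which only CncC carries the part that Keap1 binds. Keap1, which holds CncC in check, was at 24.4, 22.8 and 22.5 against 23.5, 25.2 and 28.0 CPM, a fold change of 0.909 (0.745 to 1.11). The level of cnc per kilobase was 7.12, 6.95 and 7.95 times that of Keap1 in deprived and 6.78, 6.69 and 6.13 times in replete libraries. Every deprived ratio was above every replete one, by as little as 6.95 against 6.78. These ratios were not tested. The diets overlapped in the other ratios computed, Fer2LCH to Fer1HCH, Gclc to Gclm, Prx2540-2 to Prx2540-1, Pgd to Zw, Sod1 to Sod2 and Trxr1 to Trxr2. Gene pairs beyond these were not examined.

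The metallothionein genes held the widest spread between libraries, that of MtnD. MtnA, the main metallothionein of the head here, was at 137, 85.9 and 103 CPM in deprived and 85.9, 147 and 85.05 CPM in replete heads. Deprived library 1 and replete library 2 stood above the other 4, which ran from 85.05 to 103 CPM. Its coefficient of variation was 24.5%, where genes of like abundance had 11.4%, and the fold change was 1.02 (0.622 to 1.68). MtnD and MtnE are divergent neighbours on chromosome 3R, at 20534962 to 20535301 and 20534021 to 20534704 (BDGP6.54), with 257 bases between them.

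MtnD was at 2.10, 2.61 and 3.13 CPM in deprived and 1.74, 5.53 and 0.615 CPM in replete heads, from 48, 57 and 75 and from 28, 98 and 10 counts. Its highest and lowest libraries were both replete, its coefficient of variation of 54.0% was the largest of the set, and its fold change of 0.989 had an interval from 0.364 to 2.69. MtnE was at 0.685 to 1.00 CPM in deprived and 0.738 to 1.36 CPM in replete heads, from 12 to 24 counts a library. MtnB had 6, 2 and 4 counts in deprived libraries and 8 counts in replete library 2, with 0 counts in the other replete libraries. MtnC had 0 counts in every library, which allows a level of up to 0.125 to 0.186 CPM.

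Ferritin chains, which in insects form a secreted iron store, were among the most abundant transcripts of the set and gave no call. Fer1HCH, the heavy chain gene that oxidizes iron, was at 452, 420 and 432 CPM in deprived and 369, 520 and 405 CPM in replete heads, a fold change of 1.01 (0.842 to 1.21). Fer2LCH, the light chain gene, was at 596, 566 and 592 against 517, 689 and 562 CPM, a fold change of 0.992 (0.843 to 1.17). For both genes the deprived libraries sat inside the range of the replete ones. They lie head to head on chromosome 3R, Fer1HCH at 30385573 to 30388178 on the minus strand and Fer2LCH at 30387804 to 30390584 on the plus strand (BDGP6.54), and share 118 bases of exon. Per kilobase the light chain was 1.90, 1.94 and 1.97 times the heavy chain in deprived and 2.02, 1.91 and 2.00 times in replete libraries. The ratio thus moved little even where both chains moved together.

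Libraries of the same diet differed among themselves for many of these genes. Replete library 2 was the highest of the 6 libraries for 11 of the 26 tested genes, or 42.3%, and the lowest for 0 of them, while it was the highest for 23.1% and the lowest for 24.4% of all tested genes. The 11 were Sod1, Sod2, Sod3, Cat, Prx3, Jafrac1, MtnA, MtnD, MtnE, Fer1HCH and Fer2LCH. Relative to the mean of the other replete libraries it was 4.71-fold higher for MtnD, 1.72-fold for MtnA, 1.504-fold for Sod1, 1.34-fold for Fer1HCH and 1.28-fold for Fer2LCH. The median of this ratio was 1.18 over the 26 genes against 0.982 over all tested genes. It was near 1 for the regulators and ligase subunits, at 1.02 for cnc, 0.980 for Keap1, 1.00 for Gclc and 0.970 for Gclm. Replete library 3 was the lowest for 9 of the 26 genes, or 34.6%, against 21.2% of all tested genes. Within the deprived group, library 2 was the highest for 2 of the 26 genes, or 7.69%, against 34.5% of all tested genes, and library 1 for 13, or 50.0%, against 33.4%. Within the replete group, library 2 was the highest for 15, or 57.7%, against 34.4%.

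**Figure D3:**
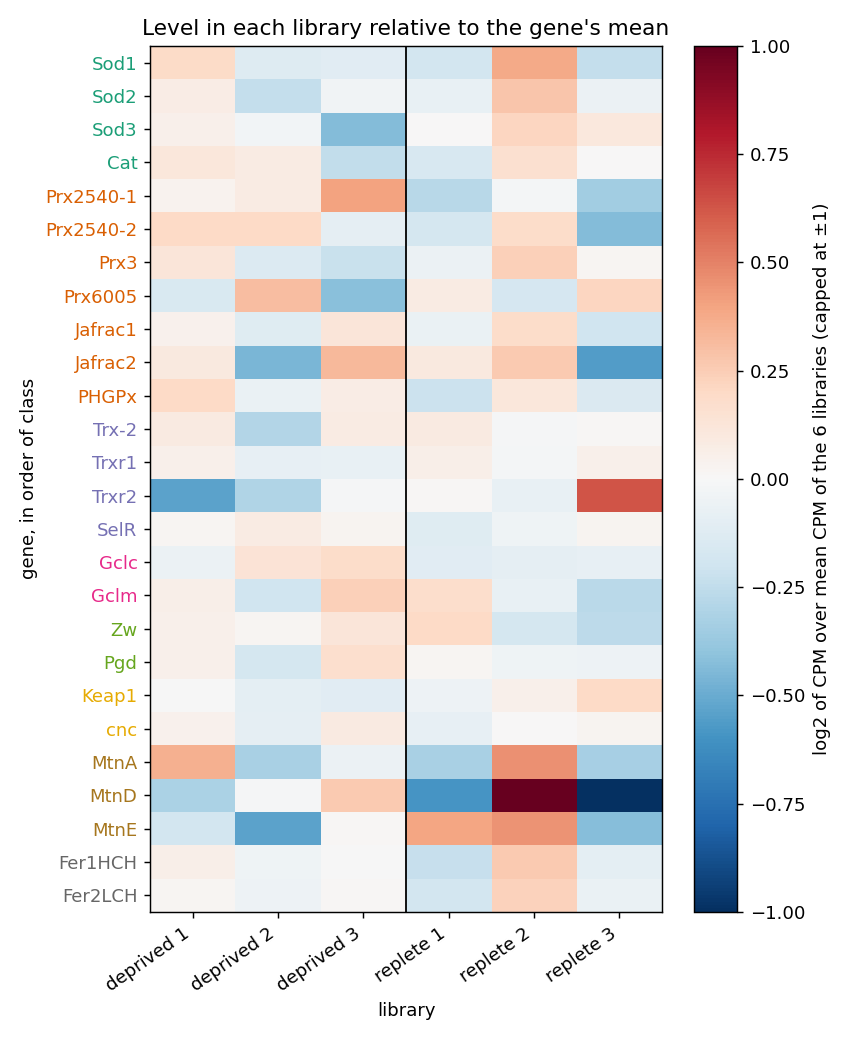
Level of each tested gene in each library as the log2 of its CPM over its mean CPM in the 6 libraries (colour, capped at 1 in either direction), with genes on the y axis in order of class and libraries on the x axis. The column of replete library 2 is mostly red, deepest for MtnD, and the column of replete library 3 holds the darkest blue, also at MtnD.

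Replete library 2 also held more counts of eggshell and digestive genes than the other libraries. The 6 eggshell genes Cp15, Cp16, Cp18, Cp19, Cp36 and Vm26Aa summed to 22.5 CPM in replete library 2 and to 0.457 to 0.620 CPM in the other 5. The other listed eggshell gene, Vm32E, was not high there, at 0.612, 1.23 and 1.25 CPM in deprived and 0.186, 0.452 and 0.492 CPM in replete libraries, and was higher in deprived heads at an unadjusted p under 0.05 without passing over all genes. The 7 digestive serine protease genes summed to 5.31 CPM there, to 0.124 CPM in replete library 1 and to 0 in the other 4, and lambdaTry, deltaTry, gammaTry and the tubule gene Uro were at 0 throughout. Oocyte genes followed another order, with osk, vas, otu, aub and nos summing to 94.9 CPM in replete library 1, 46.4 in replete library 2 and 0.492 in replete library 3, and to 14.9 to 50.6 CPM in deprived libraries. Levels of clock genes also differed, with a score of tim, vri and per over Clk and cry (log2) of 1.64, 1.79 and 2.34 in deprived and 1.80, 0.560 and -1.02 in replete libraries. The 7 fat body markers summed to between 87208 and 107732 CPM in deprived and between 87493 and 106926 CPM in replete libraries. Of these 7, 2 had estimates above 0 and 5 below (median log2 fold change -0.027). Lsp2, a storage protein gene, was higher in deprived heads at 916 to 1213 against 540 to 734 CPM and passed over all genes (edgeR, BH-adjusted p = 0.037), while the gene to was lower at an unadjusted p under 0.05 only. The 7 tested muscle markers all had estimates below 0 (median log2 fold change -0.33), and the 8 listed summed to between 3576 and 4817 CPM in deprived and between 3997 and 6269 CPM in replete heads. Of the 7, 3 were lower at an unadjusted p under 0.05 (TpnC41C, up and wupA), against 5.13% of all tested genes in either direction, and 0 passed over all genes. The part of these differences in the antioxidant values was not tested, except that the diet comparison was repeated without replete library 2 and with the clock score as a covariate.

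Replete library 2 was singled out after these genes were seen to be high in it, so leaving it out raises their deprived-over-replete estimates by construction, and the counts that follow describe that step and are no separate evidence of a diet difference. Without it, 19 of 27 tested genes had a positive log2 fold change and 8 a negative one, with a median of 0.079 against -0.0065 over all tested genes. At an unadjusted p under 0.05, 4 of the 27 were higher in deprived heads, namely MtnD, Prx2540-1, Prx2540-2 and PHGPx, against 3.59% of all genes tested in that fit. The fold changes were 2.22 for MtnD, 1.40 for Prx2540-1, 1.33 for Prx2540-2 and 1.19 for PHGPx, and 0 of the 27 passed over all genes (edgeR quasi-likelihood, smallest BH-adjusted p = 0.606). MtnD moved from a log2 fold change of -0.015 to 1.15 with that library removed, to -0.48 without replete library 3 and to -0.81 with the clock score as a covariate. Sod1 moved from -0.021 to 0.20 and Sod2 from -0.12 to 0.0079. With the clock score as a covariate 0 of 26 genes passed (edgeR quasi-likelihood, smallest BH-adjusted p = 0.999). The score was lower in replete libraries 2 and 3 than in every deprived library. Score and diet are therefore partly confounded, and that fit cannot separate them.

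**Figure D4:**
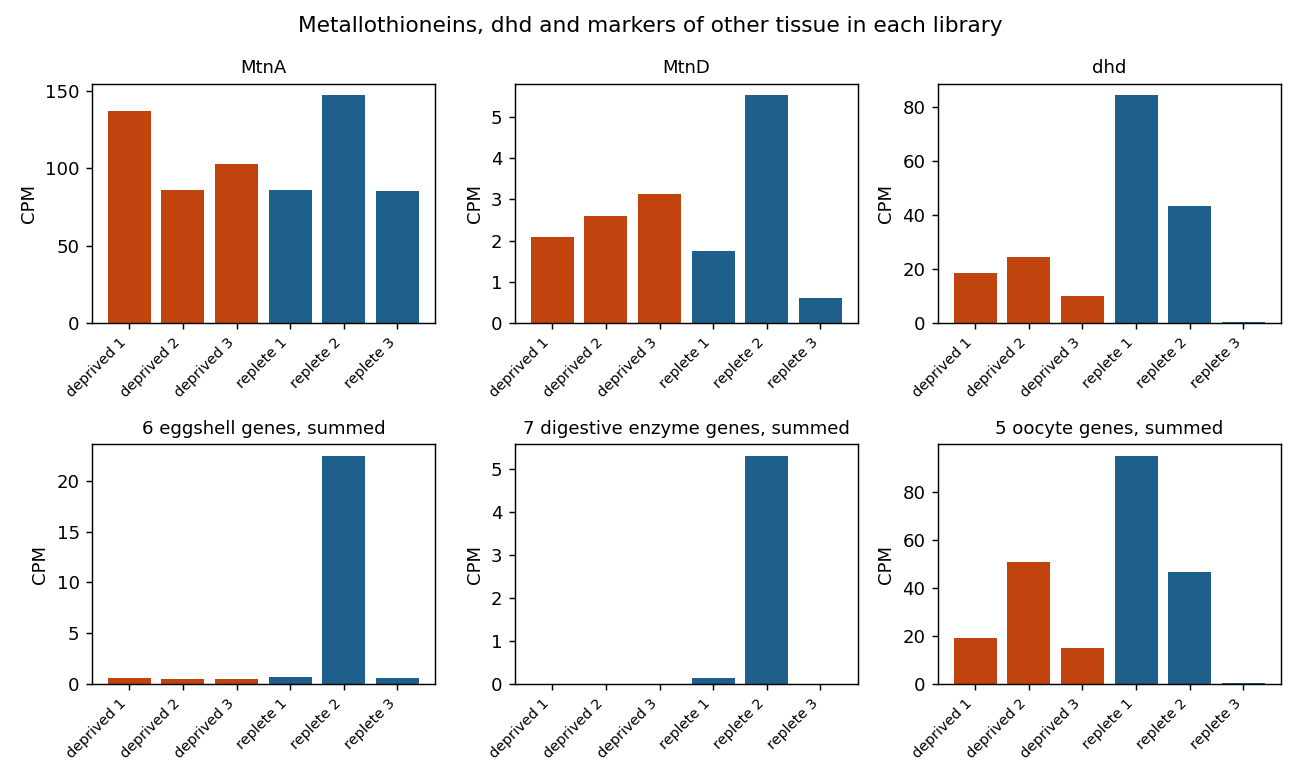
CPM of MtnA, MtnD and dhd and the summed CPM of markers of other tissue in each library (bars, 1 library each, orange deprived and blue replete). MtnD, eggshell genes and digestive enzyme genes are highest in replete library 2, whereas dhd and oocyte genes are highest in replete library 1 and near 0 in replete library 3.

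Related genes outside the set were read from the same fit, and 0 of the 92 tested members of 6 lists passed over all genes, where 0.330% of all tested genes did. CG1358 and Vps24 had been taken off the iron list after values were seen, so these counts do not cover them. At an unadjusted p under 0.05, reached by 5.13% of all tested genes, were 3 of 31 tested glutathione S-transferase genes, which attach glutathione to reactive compounds. Of these 3, 1 was higher in deprived heads and 2 were lower. These were GstZ1 at 9.62 ± 0.382 against 7.06 ± 1.00 CPM, GstT4 at 29.4 ± 0.579 against 37.1 ± 5.01 CPM and GstD10 at 2.07 ± 0.661 against 3.64 ± 1.02 CPM (deprived against replete, SD, n = 3 each). Of 9 other pentose phosphate and NADPH genes, 1 was higher at that level, the transketolase gene CG8036 at 606 ± 26.8 against 495 ± 28.3 CPM, which did not pass over all genes (edgeR, BH-adjusted p = 0.447). That list also held Idh, the NADP-dependent isocitrate dehydrogenase gene, at 714 ± 50.5 against 825 ± 82.7 CPM and Taldo, the transaldolase gene, at 116 ± 11.3 against 102 ± 5.41 CPM.

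At an unadjusted p under 0.05, which 5.13% of all tested genes reached in either direction, 1 of 20 tested copper and zinc genes was lower. It was the zinc importer relative Zip102B at 55.3 ± 3.28 against 65.4 ± 4.24 CPM. The other 2 with the smallest p were the zinc transporter genes ZnT41F at 21.6 ± 0.828 against 17.999 ± 0.698 CPM and ZnT35C, which was below 1.2 CPM in every library. The 9 tested iron handling genes, the 10 stress signalling and mitophagy genes and the 13 other redox enzyme genes each held 0 at that level. For the iron list this describes only the genes kept after values were seen. Of the iron genes with the smallest p, the transferrin gene Tsf2 was at 36 ± 1.54 against 41.3 ± 6.75 CPM, the iron regulatory protein gene Irp-1B at 119 ± 6.28 against 111 ± 11.2 CPM and the mitochondrial iron carrier gene mfrn at 85.7 ± 3.27 against 90.1 ± 8.84 CPM. Among the redox enzymes, the NADPH oxidase gene Duox was at 23.2 ± 0.917 against 26.2 ± 5.65 CPM, the methionine sulfoxide reductase gene MsrA at 78 ± 15.8 against 70.5 ± 3.34 CPM and the immune-regulated catalase gene Irc at 245 ± 3.52 against 231 ± 6.21 CPM. In the stress list the mitophagy kinase gene Pink1 was at 128 ± 10.2 against 140 ± 20.2 CPM and the stress kinase gene p38b at 16.3 ± 2.01 against 14.5 ± 3.96 CPM. The Cnc partner gene maf-S was at 22.6, 20.2 and 21.5 CPM in deprived and 16.0, 22.8 and 17.2 CPM in replete heads.

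The germline thioredoxin gene dhd, singled out after its values were seen, was at 18.5, 24.3 and 10.1 CPM in deprived and 84.3, 43.4 and 0.369 CPM in replete heads. Its levels differed widely between replete libraries, in the order of the oocyte genes there, and it did not pass (edgeR quasi-likelihood, BH-adjusted p = 0.999). In contrast to dhd, the body-wide gene Trx-2 stayed between 56.4 and 73.7 CPM. MTF-1, the metal sensor that induces metallothioneins, also chosen after its values were seen, was at 37.1, 42.7 and 45.7 against 39.4, 39.0 and 40.3 CPM. Its transcript thus did not share the high value of MtnD and MtnA in replete library 2. The activity of its protein was not measured, and its part in the metallothionein levels was not tested.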

How the data were processed

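The authors deposited whole-number read counts per FlyBase gene, 1 file per library and not normalized, per the file headers. The submitters' processing notes list Subread 1.6.2, STAR 2.5.3a, FastQC 0.11.5, featureCounts and Trim Galore 0.4.2. For the build, annotation, strand setting and handling of reads with several map positions, nothing is given in the sources used here. Of 17509 gene identifiers, 17389 matched a symbol. Of the 32 genes, 25 matched by current symbol and 7 by a RefSeq synonym (Prx2540-1 is now Prx6b, Prx2540-2 Prx6c, Prx6005 Prx6a, Jafrac1 Prx2, Jafrac2 Prx4, PHGPx Gtpx and Trx-2 Trx2). Positions and lengths come from Ensembl release 115 (BDGP6.54).

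Counts were filtered with filterByExpr (minimum count 10, minimum total 15) and tested in edgeR 4.0.16 (R 4.3.3) with TMM, robust dispersions and diet as the only term. Intervals use the standard error implied by the F statistic. They were checked only on counts simulated with the spread typical of each gene's abundance. Coverage for genes with a wider spread than that, such as Sod1 and MtnA, was not checked. No 2 libraries of a diet were duplicates: chi-square over degrees of freedom ran from 19.2 to 46.5 between them. Values per kilobase divide CPM by merged exonic length. DESeq2 1.42.0, limma 3.58.1 (voom) and other scalings, filters and left-out libraries were alternatives. Named genes were all 32, and in each related list those called or otherwise the 3 with the smallest p, with exceptions stated. The genes and lists were chosen with earlier results of these data known, and CG1358 and Vps24 were taken off the iron list after values were seen. Of the names on the lists, 4 matched no gene.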

Additional observations from a re-analysis of the deposited data

How the results depend on the processing

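In all 18 alternatives 0 of the genes of the set that could be tested, 25 to 30 of the 32, passed in either direction; Prx5 and MtnC had no count to test. At an unadjusted p under 0.05, fits without 1 library gave 0 to 4 genes higher and 0 to 1 lower (without deprived library 1, Gclc higher at a log2 fold change of 0.25 and Sod3 lower at -0.33), and thinning to the smallest library total gave 1 higher (Prx2540-1). The 4 came from the fit without replete library 2, where 3.59% of all tested genes were higher. In the main fit 5.13% of all tested genes reached this level in either direction, and the shares in the remaining fits are not given here. Over all genes, 32 were called higher and 4 lower; DESeq2 gave 56 and 23, no filter on low counts gave 10 lower, the clock covariate gave 12 higher, and fits without 1 library gave 18 to 32 higher and 2 to 7 lower. The replicate numbers gave no clear pairing of the libraries. Deviations of same-numbered libraries correlated at -0.069, -0.0049 and 0.20, and only number 3 correlated best with its own. These correlations do not settle whether same-numbered libraries were handled together. The replicate block gave 24 higher, 6 lower and 0 of the 26 tested. Signs of estimates near 0 were not stable: 10 genes kept theirs in each alternative that tested them and 16 did not. With library totals alone the log2 fold change turned to 0.0053 for Cat, 7.1e-05 for MtnD and 0.0080 for Fer2LCH. MtnD turned to 0.45 in limma-voom and 0.38 with the replicate block. With the clock covariate it was 0.10 for Cat, 0.027 for Prx6005, -0.064 for Jafrac1, -0.33 for Jafrac2, -0.16 for Gclm, -0.091 for Zw, -0.018 for Pgd, 0.0019 for Keap1 and 0.030 for Fer2LCH. Leaving out 1 library at a time gave ranges of -0.13 to 0.20 for Sod1, -0.19 to 0.0079 for Sod2, -0.093 to 0.088 for Cat, -0.33 to 0.047 for Prx6005, -0.047 to 0.15 for Jafrac1, -0.16 to 0.23 for Jafrac2, -0.12 to 0.054 for Trx-2, -0.017 to 0.21 for Gclm, -0.035 to 0.13 for Pgd, -0.0043 to 0.078 for cnc, -0.17 to 0.34 for MtnA, -0.48 to 1.15 for MtnD, -0.090 to 0.17 for Fer1HCH and -0.099 to 0.12 for Fer2LCH. The cause of these moves was not tested. Counts were lowest for MtnE, Trxr2, Prx6005 and MtnD among the tested genes of the set, with 10 to 98 counts a library. MtnD also had a wider spread than genes of like abundance, with a coefficient of variation of 54.0% against 35.2%.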
